A study of Mus musculus with 2 samples.

Results

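The genes described are the 7 members of the TREM2-TYROBP signaling module that were chosen by symbol from the 32285 genes of the count tables: Trem2, Tyrobp, Hcst, Syk, Plcg2, Trem1 and Trem3. Their levels were measured by single-cell RNA sequencing of cells sorted from whole mouse brain, in 1 library of Disc1 WT/WT mice, the controls, and 1 library of their Disc1 LI/LI littermates. Both groups were male and 23 weeks old, and each library was a pool of 6 animals. The LI allele, short for locus impairment, was homozygous in Disc1 LI/LI mice and affects the gene of the scaffold protein DISC1 in the whole animal, with no cell type targeted. All tissue was dissociated with actinomycin D, an inhibitor of transcription that limits the response of cells to dissociation, and the gate of the cell sort took CD45low CD11b+ cells, which the labels call microglia. Each gene was counted in UMIs, tags that mark single captured transcripts, and a level is given in CPM, the counts per 1000000 summed UMIs of the same cells. With 1 library per genotype there was no replicate and no test was made. All intervals are exact 95% intervals that cover counting error only, and levels of different genes were not compared with each other, since the capture of each transcript is unknown.

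TREM2 is a surface receptor of microglia and other tissue macrophages that binds lipids and lipoproteins. It has no signaling tail of its own and pairs with TYROBP (DAP12), an adaptor whose cytoplasmic ITAM motif is phosphorylated by Src family kinases and then recruits the kinase SYK. SYK activates PLCG2, a phospholipase that raises calcium and protein kinase C activity, and the PI3K branch, in which HCST (DAP10) can take part through its own motif. TREM1, an amplifier of inflammation on neutrophils and monocytes, and TREM3, an activating receptor of mouse myeloid cells, use the same adaptor TYROBP. The module is known in brain for its role in microglial phagocytosis and survival, and loss of TREM2 or TYROBP causes Nasu-Hakola disease in humans.

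In the mm10 annotation, Trem1 (ENSMUSG00000042265, chr17:48232768-48246924), Trem3 (ENSMUSG00000041754, chr17:48247777-48258841) and Trem2 (ENSMUSG00000023992, chr17:48346401-48354147) followed each other on the plus strand of chromosome 17. Tyrobp (ENSMUSG00000030579, chr7:30413760-30417585, plus strand) and Hcst (ENSMUSG00000064109, chr7:30417712-30419854, minus strand) faced each other with their 3′ ends, with 126 bases between them. Syk (ENSMUSG00000021457, chr13:52583173-52648792) and Plcg2 (ENSMUSG00000034330, chr8:117498291-117635142) were the longest members, at 65.6 and 137 kb. The 250 bases before the transcription start of Trem2, Trem1 and Hcst are shown because, among the members with a promoter entry, these 3 differed most in level between microglia and neutrophils. They were taken from RefSeq (GRCm38.p6), which held an entry for 5 of the 7 members, and run 5′ to 3′ on the strand of the gene. Capitals mark matches, on either strand, to AGGAAG, the core bound by the ETS factor PU.1 of myeloid cells, and to TTNCNNAA, a C/EBP-type site.

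Trem2, chr17:48346151-48346400, plus strand: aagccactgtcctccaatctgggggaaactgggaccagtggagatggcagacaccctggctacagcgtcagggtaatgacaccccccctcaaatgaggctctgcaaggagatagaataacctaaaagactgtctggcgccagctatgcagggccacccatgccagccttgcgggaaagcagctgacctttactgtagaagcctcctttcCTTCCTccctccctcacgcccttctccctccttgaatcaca
Trem1, chr17:48232489-48232738, plus strand: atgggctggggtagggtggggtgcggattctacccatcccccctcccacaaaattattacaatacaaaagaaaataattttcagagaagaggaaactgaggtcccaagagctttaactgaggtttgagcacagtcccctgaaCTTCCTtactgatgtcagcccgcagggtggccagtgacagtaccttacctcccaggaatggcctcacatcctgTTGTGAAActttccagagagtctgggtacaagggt
Hcst, chr7:30419855-30420104, minus strand: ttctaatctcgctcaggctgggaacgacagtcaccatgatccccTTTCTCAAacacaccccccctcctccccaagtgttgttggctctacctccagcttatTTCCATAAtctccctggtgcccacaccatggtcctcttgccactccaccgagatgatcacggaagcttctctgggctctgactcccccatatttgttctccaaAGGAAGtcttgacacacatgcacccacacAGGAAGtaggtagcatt

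The Trem2 sequence held 1 ETS match, 35 bases before the start, and no C/EBP match. The Trem1 sequence held 1 match of each kind, and the Hcst sequence held 2 of each. AGGAAG was present in 29.5% and TTNCNNAA in 36.8% of 32851 promoters of the same length. These matches are descriptions of letters and were not tested for binding.

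Before the levels were compared, cells were placed in classes by marker genes other than the 7 members. Cells with at least 0.5% of their UMIs from 6 microglia markers (P2ry12, Gpr34, Tmem119, Siglech, Fcrls and Olfml3) and under 1% from S100a8 and S100a9 were called microglia, cells with at least 3% from S100a8 and S100a9 were called neutrophils, and the remainder other cells. The 2 libraries differed in their cells. Microglia made up 6180 of 7032 control cells (87.9%, 87.1 to 88.6%) and 1950 of the 7817 cells of Disc1 LI/LI (24.9%, 24.0 to 25.9%), neutrophils made up 116 (1.65%) and 3622 (46.3%), and other cells 736 (10.5%) and 2245 (28.7%). Thus the sort, which was directed at microglia, yielded a Disc1 LI/LI library with more neutrophils than microglia. The median UMIs per cell lay between 3640.5 and 6403 in the 6 combinations of class and library. The 5 microglia markers and the 8 mature neutrophil markers that the rule did not use were each higher in their own class than in both other classes, in each library. Disc1 was counted at 642 UMIs (19.1 CPM) in control cells and at 22 UMIs (0.461 CPM) in Disc1 LI/LI cells, and 12 barcodes occurred in both libraries.

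Trem2 and Tyrobp transcripts were found in nearly all microglia. Trem2 was detected in 99.2% (98.9 to 99.4%) of Disc1 WT/WT and 99.6% (99.3 to 99.9%) of Disc1 LI/LI microglia, with a mean of 11.5 and 12.5 UMIs per cell. Tyrobp was detected in 99.5% and 99.7%, with a mean of 15.1 and 18.2 UMIs per cell. When each cell was thinned to 1000 UMIs, which left out 104 and 17 shallower microglia, Trem2 was still found in 89.8% and 93.6% and Tyrobp in 94.3% and 97.7% of microglia. Both were found in the same thinned cell in 84.7% (83.7 to 85.6%) of Disc1 WT/WT and 91.5% (90.2 to 92.7%) of Disc1 LI/LI microglia, and neither in 0.609% and 0.207%. Microglia therefore varied little in whether they held receptor and adaptor transcripts. The variance over the mean of thinned Trem2 counts was 1.15 and 1.22, and that of Tyrobp 1.28 and 1.48, where counting alone gives a ratio near 1.

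At this depth the signaling enzymes downstream were found in part of the microglia. Syk, the kinase recruited to the ITAM, was detected in 34.2% (33.0 to 35.4%) of Disc1 WT/WT and 22.6% (20.8 to 24.5%) of Disc1 LI/LI microglia, and Plcg2 in 31.7% and 25.1%. After thinning, the shares were 9.18% and 5.12% for Syk and 8.31% and 6.31% for Plcg2. Hcst was detected in 11.8% (11.0 to 12.7%) and 15.7% (14.1 to 17.4%), or 2.60% and 4.92% after thinning. Trem1 had a UMI in 3 of the 6180 microglia of Disc1 WT/WT (0.0485%) and in 13 of the 1950 of Disc1 LI/LI (0.667%), and Trem3 in 7 (0.113%) and 36 (1.85%).

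**Figure D1:**
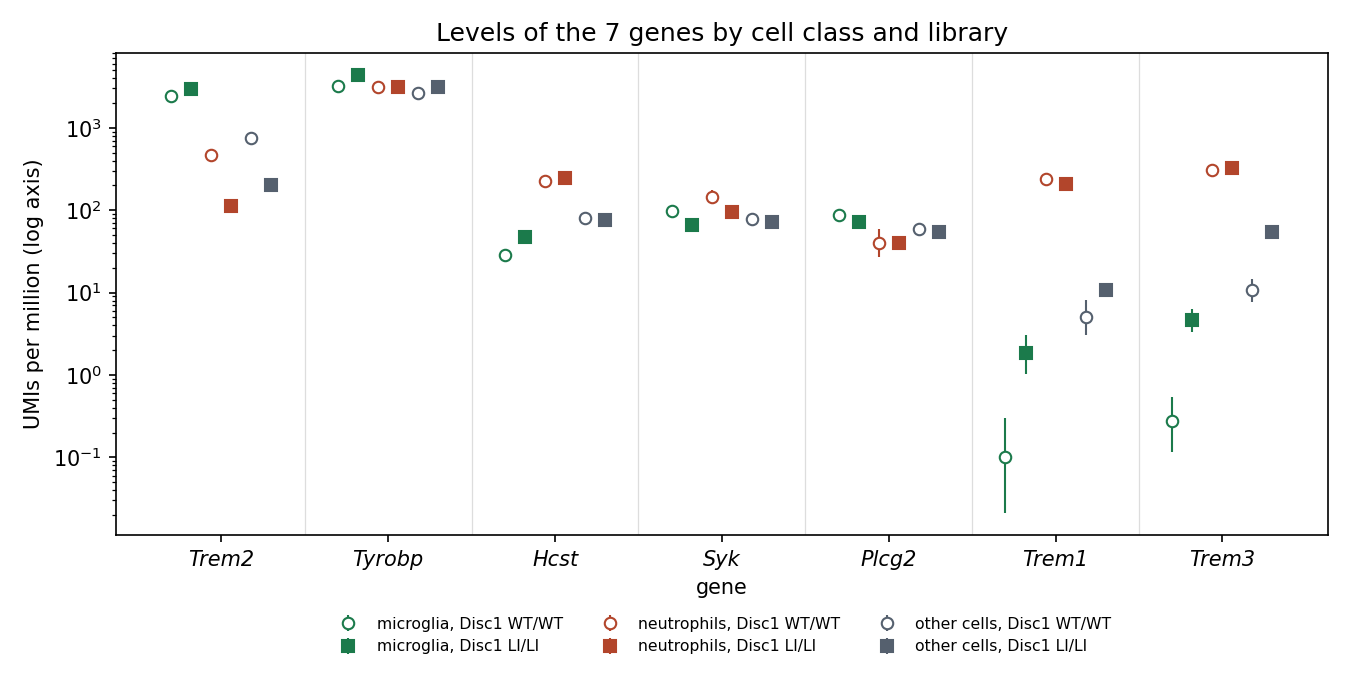
Level of each of the 7 genes, in CPM on a log axis, in microglia, neutrophils and other cells of the Disc1 WT/WT library (open circles) and the Disc1 LI/LI library (filled squares). Bars are exact 95% counting intervals, with 1 library per genotype. Trem2 was highest in microglia of both libraries, Trem1 and Trem3 were highest in neutrophils, and Tyrobp lay between 2666 and 4334 in all classes.

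The receptors differed in level between the classes. Trem2 was counted at 2418 CPM (2401 to 2436) in Disc1 WT/WT microglia, 759 in other cells and 468 in neutrophils, and at 2982 CPM (2945 to 3020), 203 and 111 in the Disc1 LI/LI library. Trem1 had the opposite order, with 240 CPM (204 to 280) in Disc1 WT/WT neutrophils, 5.09 in other cells and 0.102 in microglia, and 210, 10.6 and 1.84 CPM in Disc1 LI/LI. Trem3 followed Trem1, with 304 CPM in neutrophils, 10.7 in other cells and 0.272 in microglia of Disc1 WT/WT and with 325, 53.6 and 4.65 CPM in Disc1 LI/LI. In each library no 2 of these class intervals overlapped for Trem2, Trem1 or Trem3, and the same held for Hcst. The Trem2 counts in neutrophils were concentrated in a cluster that also held microglia markers, as given below. The share of all genes without such overlap was not computed. Between neutrophils and microglia, 80.7% of tested genes in the controls and 84.2% in Disc1 LI/LI differed by at least 1.5-fold.

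The adaptors differed from each other in this respect. Tyrobp was counted at 3175 CPM (3155 to 3196) in microglia, 3149 (3016 to 3287) in neutrophils and 2666 in other cells of Disc1 WT/WT, so that the first 2 did not differ beyond counting error. In Disc1 LI/LI it stood at 4334 CPM (4289 to 4379) in microglia, 3114 (3090 to 3138) in neutrophils and 3114 (3088 to 3139) in other cells. Hcst was lowest in microglia, with 28.3 CPM (26.4 to 30.3) against 223 (189 to 262) in neutrophils and 79.4 in other cells of Disc1 WT/WT, and with 47.0, 249 and 75.6 CPM in Disc1 LI/LI. Among the enzymes, Syk was counted at 98.4, 145 and 78.6 CPM in microglia, neutrophils and other cells of Disc1 WT/WT and at 66.7, 95.1 and 71.8 CPM in Disc1 LI/LI. Plcg2 was highest in microglia, with 86.7, 40.5 and 59.1 CPM in the controls and 70.9, 40.3 and 53.7 CPM in Disc1 LI/LI.

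Between neutrophils and microglia of the same library, Trem2 and Plcg2 were lower and Hcst, Trem1 and Trem3 higher in neutrophils by at least 1.5-fold, the fold used throughout, in both libraries. These were 5 of the 7 members, where 80.7% of 8616 genes with at least 10 CPM in either class passed that fold in the controls and 84.2% of 8249 in Disc1 LI/LI, so that such a share was common to all genes. Trem1 and Trem3 reached 10 CPM only in neutrophils, so that no other direction was possible for them. Most genes were lower in CPM in neutrophils, with a median log2 ratio of -1.11 and -1.29. The log2 ratio of neutrophils over microglia was -2.37 (-2.54 to -2.21) and -4.75 (-4.81 to -4.69) for Trem2 and 2.98 and 2.40 for Hcst. For Trem1, with only 3 UMIs in Disc1 WT/WT microglia, it was 11.20 (9.62 to 13.49) and 6.84 (6.11 to 7.67), and for Trem3 10.13 and 6.13. Scaling by TMM (trimmed mean of M values), which assumes that most genes do not differ, raised these ratios by 0.50 in the controls and 1.36 in Disc1 LI/LI. Under it Tyrobp turned from -0.48 to 0.88 and Plcg2 from -0.81 to 0.55 in Disc1 LI/LI, whereas Trem2, Hcst, Trem1 and Trem3 kept their direction.

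Trem2 counts in neutrophils moved with the other microglia genes. Of 5 microglia markers not used to define the classes (Cx3cr1, Sparc, P2ry13, Sall1 and Slc2a5), neutrophils held between 19.4 and 26.8% of the microglia level in the controls and between 3.47 and 4.03% in Disc1 LI/LI. Trem2 stood at 19.3% and 3.72%, just below the first range and within the second. None of the 5 markers was at 0 in neutrophils. These counts were concentrated in neutrophil cluster 4 (29 control and 202 Disc1 LI/LI cells), in which the same markers had a median of 49.3% and 38.4% of the microglia level and Trem2 stood at 1086 and 1155 CPM. Neutrophil cluster 6 (0 control and 127 Disc1 LI/LI cells) was led by B cell genes, with 6 of 9 B cell markers passing. It also passed 7 of 9 classical monocyte and 7 of 10 immature neutrophil markers. Without clusters 4 and 6, an exclusion chosen after the data were seen, Trem2 was counted at 20.7 CPM in 87 Disc1 WT/WT and 19.8 CPM in 3293 Disc1 LI/LI neutrophils, or 0.848% and 0.661% of the microglia level, with the 5 markers at 0 to 1.31% and 0.487 to 1.18%. Trem2 at that level lay within the range of the 5 markers in both libraries, and no expression in neutrophils is read from it.

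The reverse held for the neutrophil receptors in microglia. Across 18 neutrophil markers not used in the rule, microglia held a median of 0.0354% of the neutrophil level in Disc1 WT/WT, from 0.0114% for Ngp to 53.4% for Csf3r, and 0.929% in Disc1 LI/LI, from 0.437% for Ngp to 56.2% for Csf3r. Csf3r, the G-CSF receptor gene, stood apart from the second highest marker, Lyz2, at 5.49% and 7.91%. Trem1 in microglia amounted to 0.0426% and 0.875% of its neutrophil level, above the median in the controls and below it in Disc1 LI/LI. Trem3 amounted to 0.0895% and 1.43%, above the median in both libraries. Both genes lay below the markers Ltb4r1 (0.266%) in the controls and Mmp9 (1.58%) in Disc1 LI/LI. The part of neutrophil RNA in these UMIs was not tested, and neither expression in microglia nor a change between genotypes is read from them.

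Between genotypes, microglia of the Disc1 LI/LI library had more Trem2, Tyrobp and Hcst and less Syk and Plcg2 in CPM. Trem2 was 1.23-fold (1.215 to 1.251) and Tyrobp 1.36-fold (1.35 to 1.38) the level in the control library, and Hcst, with 832 and 384 UMIs, was 1.66-fold (1.47 to 1.88). Syk was at 0.678-fold (0.617 to 0.743) and Plcg2 at 0.818-fold (0.746 to 0.895). Hcst was the only one past 1.5-fold among the 5 members with at least 10 CPM, where 17.8% of 8128 genes passed it, 1.57% upward and 16.3% downward. The median log2 ratio of all tested genes was -0.19. Against it the log2 ratios were 0.30 (0.28 to 0.32) for Trem2, 0.45 (0.43 to 0.47) for Tyrobp, 0.73 (0.55 to 0.91) for Hcst, -0.56 (-0.70 to -0.43) for Syk and -0.29 (-0.42 to -0.16) for Plcg2. These 5 directions held under each of the 10 alternatives computed, with ranges of 0.30 to 0.36, 0.44 to 0.50, 0.65 to 0.95, -0.86 to -0.51 and -0.48 to -0.23. How far any of them exceeds the difference between 2 pools of the same genotype cannot be said from 1 library of each.

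The sums over all cells of a library mix classes in different shares. Trem2 went from 2205 CPM in the control library to 638 CPM, Trem1 from 5.39 to 99.2, Trem3 from 7.41 to 168, Hcst from 37.6 to 149 and Plcg2 from 82.8 to 50.6. These 5 of 7 members passed 1.5-fold, where 71% of 8700 genes did, 14.1% upward and 56.8% downward, with a median log2 ratio of -0.75. Tyrobp (3121 and 3323 CPM) and Syk (97.3 and 81.5 CPM) did not pass it. Trem1 and Trem3 reached 10 CPM only in Disc1 LI/LI, so that no other direction was possible for them.

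**Figure D2:**
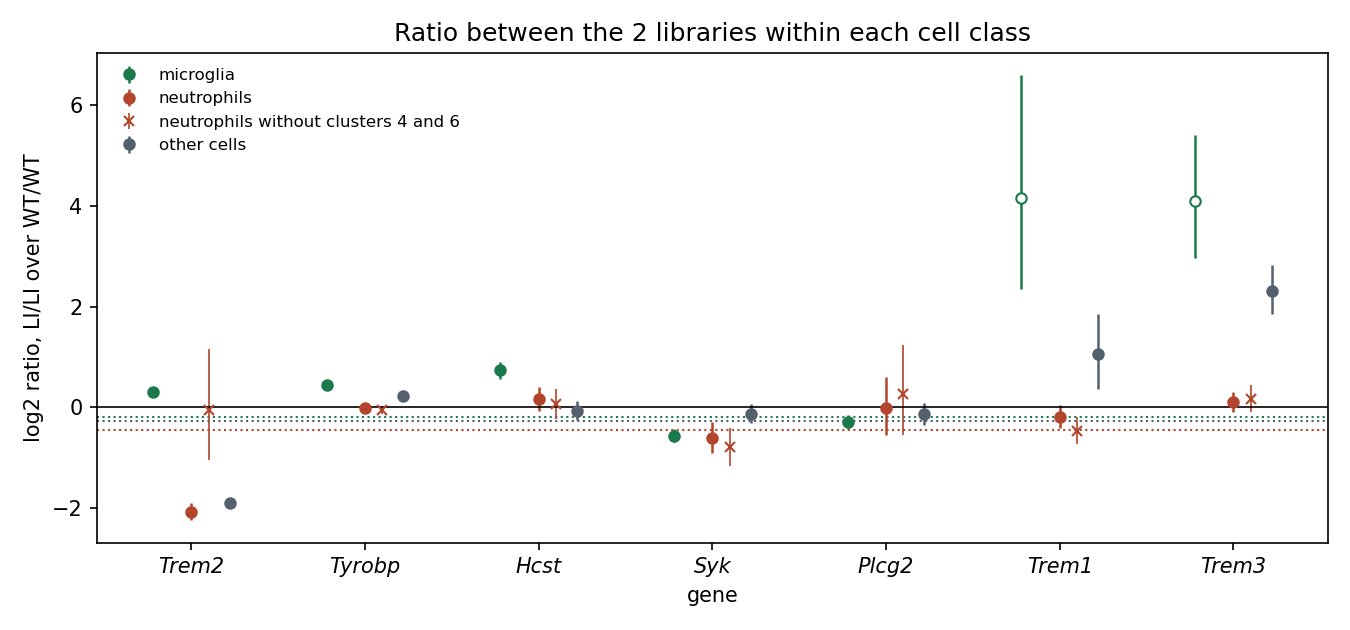
Log2 ratio of the Disc1 LI/LI over the Disc1 WT/WT library for each of the 7 genes in microglia, neutrophils and other cells, with exact 95% counting intervals. Crosses show neutrophils without clusters 4 and 6, dotted lines the median of all tested genes of a class, and open circles genes under 10 CPM in both libraries. Trem2 in neutrophils moved from -2.08 to -0.06 once clusters 4 and 6 were left out, and TMM scaling would raise all neutrophil ratios by 0.92 and all ratios in other cells by 0.48, which turns Syk in neutrophils to 0.30.

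These ratios ran along with gene length. When the genes tested in microglia were split by length into 5 bins of 1625 genes, the median log2 ratio was 0.15 in the shortest bin (0.204 to 8.19 kb), -0.03, -0.20 and -0.37 in the next 3, and -0.48 in the longest. Hcst (2.14 kb), Tyrobp (3.83 kb) and Trem2 (7.75 kb) lay in the shortest bin, Syk (65.6 kb) in the fourth and Plcg2 (137 kb) in the longest. The middle 50% of genes ran from -0.05 to 0.27 in the shortest bin, and Trem2, Tyrobp and Hcst lay above it. Syk lay just inside its range (-0.57 to -0.15), and Plcg2 lay inside its own (-0.66 to -0.26). The part of gene length in these ratios was not tested. The labels name 2 chips and 2 versions of the library kit without saying which library used which, so that a difference in kit cannot be told apart from genotype.

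**Figure D3:**
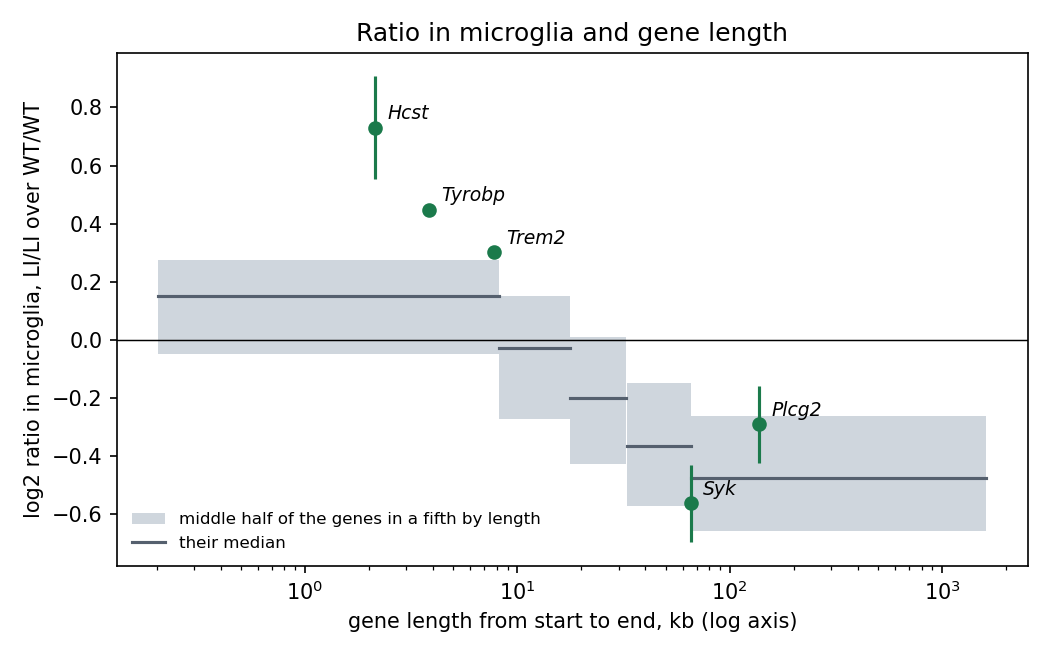
Log2 ratio of the Disc1 LI/LI over the Disc1 WT/WT library in microglia against gene length in kb on a log axis. Grey boxes and lines show the middle 50% and the median of the genes in each of 5 length bins, and green points show the 5 genes tested with 95% counting intervals. Medians run from 0.15 to -0.48 with length, Trem2, Tyrobp and Hcst lie above the box of the shortest genes, and Syk and Plcg2 lie inside theirs.

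The microglia of the 2 libraries also fell into different clusters. Clustered without the 7 members, Disc1 WT/WT microglia lay mostly in cluster 1 (4137 of 6180) and in cluster 3 (1172, led by the immediate early genes Egr1 and Fosb), and Disc1 LI/LI microglia in cluster 2 (1620 of 1950). Trem2 was counted at 2445 CPM in cluster 1 and 2422 CPM in cluster 3 of Disc1 WT/WT and at 3063 CPM in cluster 2 of Disc1 LI/LI, and Tyrobp at 3149, 2900 and 4285 CPM. A cluster that is nearly all from 1 library cannot be told apart from that library. Cluster 5 (195 and 21 cells) was led by border macrophage genes such as Mrc1 and Pf4, and without it the log2 ratios in microglia were 0.30 for Trem2, 0.45 for Tyrobp, 0.75 for Hcst, -0.57 for Syk and -0.31 for Plcg2.

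Across the other microglia clusters Tyrobp varied more than Trem2. In the 6 clusters with at least 50 Disc1 WT/WT cells, Trem2 ranged from 1833 CPM in cluster 7 to 2754 CPM in cluster 4, and Tyrobp from 1943 to 5420 CPM in the same clusters. Cluster 4 was led by Gstm5, Cst3 and mitochondrial transcripts and cluster 7 was shallow, with a median of 830 UMIs. In cluster 4 Syk had its lowest Disc1 WT/WT level, 60.6 CPM, against 107 CPM in cluster 3, while Hcst had its highest, 55.7 CPM, against 25.5 CPM in cluster 1. The interferon-responsive cluster 6, led by Ifit2 and Ifit3, held 2503 CPM of Trem2 and 3243 CPM of Tyrobp.

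Only 5 clusters held at least 50 cells of each library, and they allow the genotypes to be compared within a cluster. They were microglia cluster 4 (398 and 157 cells) and other-cell clusters 2 (border macrophage-like, 294 and 76), 5 (led by Pf4 and Apoe, 108 and 67), 7 (led by Lpl and Ccl4, 87 and 83) and 9 (T cell-like, 51 and 86). Clusters 5 and 7 reached the limit of 3 markers, for border macrophages and dendritic cells respectively, while the other 6 markers of each type did not pass, and they were left without a name. Tyrobp was higher in Disc1 LI/LI in 5 of 5, with log2 ratios of 0.25 to 0.58 and every interval above 0. These clusters share the same 2 libraries and are not separate observations of genotype. The share of all genes higher in each of them was not computed. Tyrobp was also higher in Disc1 LI/LI in the NK cell-like, B cell-like and endothelial-marker clusters, as given below. Trem2 was higher in microglia cluster 4 (0.32, 0.23 to 0.41), the border macrophage-like cluster (0.26, 0.05 to 0.47) and cluster 5 (0.35, 0.19 to 0.51). It was not detectably different in cluster 7 (-0.05, -0.18 to 0.08) or the T cell-like cluster (-0.07, -0.35 to 0.21). The medians of all tested genes in these clusters lay between -0.29 and -0.13. Syk had an interval below 0 in microglia cluster 4 (-1.03, -2.003 to -0.17, 74 and 13 UMIs), and Plcg2 in the border macrophage-like cluster (-1.84, -3.77 to -0.40, 50 and 4 UMIs). No Hcst interval left 0 in these 5 clusters, with log2 ratios of -0.13 to 0.81. Trem1 and Trem3 had intervals above 0 in cluster 7, with 1 and 12 UMIs for Trem1 and 1 and 23 for Trem3. Trem3 also did in microglia cluster 4, with 0 and 3 UMIs. Cluster 7 was the cluster with the highest Tyrobp ratio (0.58). The part of RNA from neutrophils and other myeloid cells in these counts, those of Tyrobp included, was not tested.

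In neutrophils the intervals of the members other than Trem2 and Syk included a ratio of 1. The log2 ratio of Disc1 LI/LI over controls was -0.02 (-0.08 to 0.05) for Tyrobp, 0.16 (-0.08 to 0.40) for Hcst, -0.19 (-0.42 to 0.04) for Trem1, 0.10 (-0.10 to 0.31) for Trem3 and -0.01 (-0.56 to 0.60) for Plcg2. Trem2 (-2.08) and Syk (-0.61, -0.91 to -0.30) were lower by at least 1.5-fold, 2 of 7 members, where 50.1% of 6569 genes passed that fold, 7.72% upward and 42.4% downward. The median of all genes was -0.44. Without clusters 4 and 6 the Trem2 ratio was -0.06 (-1.05 to 1.16), Syk stayed low at -0.80 (-1.16 to -0.42) and Trem1 was -0.48 (-0.74 to -0.20). TMM scaling, which shifted every ratio by 0.92, turned Syk to 0.30 and put the other 5 members past 1.5-fold upward, so that no direction between genotypes is given for them. With 116 Disc1 WT/WT neutrophils against 3622, the cluster makeup of the class also differed.

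Within the neutrophils of the Disc1 LI/LI library, Trem1 and Trem3 ran in opposite directions across the clusters given here. Cluster 5 (167 cells) expressed immature neutrophil and cell cycle markers, cluster 3 (762 cells) was immature neutrophil-like with Ltf, Ngp and Camp, cluster 2 (962 cells) was mature neutrophil-like with Retnlg, Mmp8 and Mmp9, and cluster 1 (1321 cells) was mature neutrophil-like with Il1b and Cxcl2. In that order Trem1 was counted at 28.5 (22.9 to 34.9), 108 (99.6 to 116), 309 (293 to 326) and 591 (565 to 618) CPM, each interval above the previous one. Trem3 stood at 393, 383, 332 and 221 CPM and thus ran the other way, although its first 2 intervals overlapped. Tyrobp stood at 1301, 2292, 3818 and 5979 CPM, Hcst at 155, 237, 323 and 388 CPM, and Syk at 38.4, 55.8, 115 and 221 CPM.

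The total UMIs per cell declined along the same clusters, from 19360 to 7909, 4485 and 2546. Counted per cell, Trem1 still went up, with 0.551, 0.852, 1.39 and 1.505 UMIs, and Trem3 went down from 7.60 to 3.03, 1.49 and 0.562. Tyrobp, in contrast, went from 25.2 to 18.1, 17.1 and 15.2 UMIs per cell and Hcst from 2.99 to 1.88, 1.45 and 0.987, so that their order depended on the scale. Syk stood between 0.441 and 0.743 UMIs per cell with no such order. Trem1 was detected in 33.5, 48.3, 62.7 and 67.1% of the cells of clusters 5, 3, 2 and 1, and Trem3 in 99.4, 91.1, 71.9 and 40.5%. In the fewer Disc1 WT/WT cells, Trem1 stood at 181, 433 and 484 CPM in clusters 3, 2 and 1 (26, 16 and 41 cells) and Trem3 at 340, 314 and 205 CPM. The order of these clusters follows their markers and is not a measured time course.

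**Figure D4:**
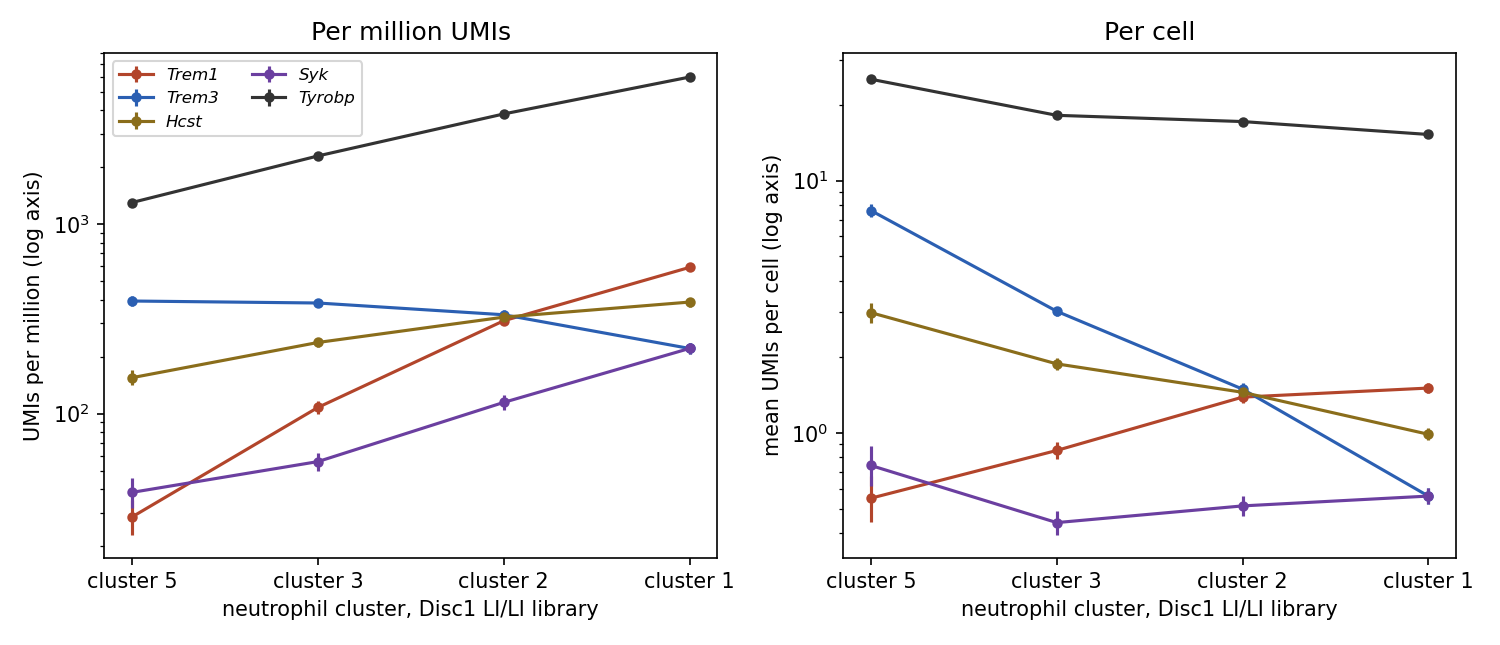
Levels of 5 genes in 4 neutrophil clusters of the Disc1 LI/LI library, in CPM (left) and mean UMIs per cell (right), both on log axes with 95% counting intervals. Clusters run from immature and cycling (cluster 5) over immature (cluster 3) to mature neutrophil-like (clusters 2 and 1). From cluster 5 to cluster 1 Trem1 went up and Trem3 down on both scales, whereas Tyrobp and Hcst went up in CPM and down per cell.

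A neutrophil progenitor-like cluster with Mpo, Elane and Ctsg lay among the other cells (cluster 6, 169 Disc1 LI/LI and 5 Disc1 WT/WT cells). In its Disc1 LI/LI cells Trem3 was already counted at 176 CPM, or 3.05 UMIs per cell, while Trem1 was at 10.9 CPM, or 0.189 UMIs per cell. Tyrobp was counted there at 1801 CPM and Hcst at 59.0 CPM. At a resolution of 1 the cluster came apart into 61 Disc1 LI/LI cells with Mpo, Elane and Ctsg and 108 with classical monocyte markers. Trem3 stood at 260 and 51.6 CPM in these, Tyrobp at 919 and 3107 CPM, Trem1 at 11.4 and 10.2 CPM and Hcst at 62.9 and 53.3 CPM.

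Among the other cells, with both libraries together, Trem2 and Tyrobp were highest in cluster 5 (2425 and 5873 CPM). Syk, Plcg2 and Trem1 were highest in cluster 10, Hcst in cluster 11 and Trem3 in cluster 6. In the class as a whole, Trem2 was lower in Disc1 LI/LI (log2 ratio -1.90, -1.97 to -1.83). Trem1 (1.07, 0.37 to 1.85) and Trem3 (2.32, 1.85 to 2.83) were higher. These were 3 of 7 members, where 48.6% of 8350 genes passed 1.5-fold, 13.1% upward and 35.5% downward. Trem1 (5.09 and 10.6 CPM) reached 10 CPM only in Disc1 LI/LI, so that no other direction was possible for it. The median of all genes was -0.27. The class held different cells in the 2 libraries, with 294 border macrophage-like cells in Disc1 WT/WT against 76 in Disc1 LI/LI and 22 classical monocyte-like cells against 905, and the ratios are therefore not read as changes within a cell type. Classical monocyte-like cells (cluster 1) of Disc1 LI/LI held 4435 CPM of Tyrobp, 12.6 CPM of Trem1 and 34.8 CPM of Trem3. Nonclassical monocyte-like cells (cluster 10, 39 and 91 cells) held 49.6 and 32.0 CPM of Trem1 and 140 and 72.1 CPM of Trem3, and Syk stood at 207 and 132 CPM.

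With both libraries together, Hcst was highest in the NK cell-like cluster (599 CPM). HCST is known in NK and T cells as the adaptor of the receptor NKG2D. Hcst was counted at 532 and 486 CPM in T cell-like cells of controls and Disc1 LI/LI. In NK cell-like cells (cluster 11, 15 and 60 cells) it stood at 382 and 660 CPM. The control value of the NK cell-like cells lay below the 388 CPM of neutrophil cluster 1 in Disc1 LI/LI. Tyrobp was counted at 2902 and 3791 CPM in NK cell-like cells, but at 1023 and 1385 CPM in T cell-like and 971 and 1314 CPM in B cell-like cells (cluster 4, 15 and 171 cells). It was lowest in cluster 12, which held endothelial markers, at 64.6 and 434 CPM (32 and 40 cells).

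Trem2 outside microglia was read beside the 5 microglia markers in each cluster. In the mature and immature neutrophil-like clusters 1, 2 and 3 of Disc1 LI/LI Trem2 stood at 0.768%, 0.536% and 0.545% of the microglia level, beside a marker median of 0.624%, 0.409% and 0.437%. In T cell-like cells Trem2 stood at 27.3% and 21.1%, above the highest of the 5 markers at 19.04% and 18.5%. In B cell-like cells it stood at 19.7% in the controls, with the markers at 9.97 to 21.9%, and at 13.2% in Disc1 LI/LI, with the markers at 5.79 to 11.0%. In cluster 7 it stood at 62.9% and 49.2%, above the highest marker (51.5%) in the first and below it (52.2%) in the second. Border macrophage-like cells were further from their markers, with Trem2 at 27.0% and 26.3% (654 and 784 CPM) and the marker median at 4.18% and 4.32%, although the highest marker reached 18.9% and 15.7%. In cluster 5 Trem2 reached 90.4% and 93.5%, beside a median of 22.6% and 30.8% and a highest marker of 74.4% and 65.3%. The part of microglia RNA in these Trem2 counts was not tested, and doublets were not removed.

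**Figure D5:**
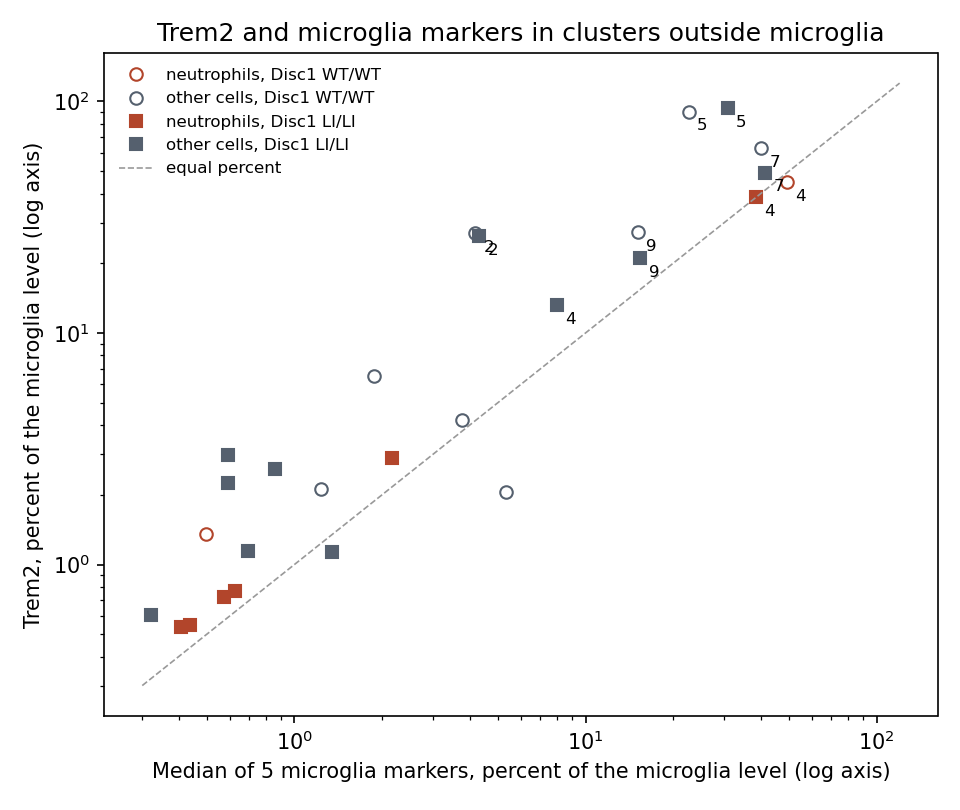
Trem2 against the median of 5 microglia markers in clusters of neutrophils and other cells with at least 20 cells of a library, each as percent of the level in microglia of the same library, on log axes, with 2 clusters of median 0 not drawn. Numbers name the clusters above 8% of the microglia Trem2 level, the dashed line marks equal percent, and the border macrophage-like cluster 2 (27.0 and 26.3% for Trem2 against 4.18 and 4.32%) lies above it.

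The genes most like 3 of the members were sought over 25 clusters of at least 50 cells among 6659 genes that reached 50 CPM in any cluster, by Pearson correlation of log2(CPM + 1). The clusters share libraries and depth, so that the values are descriptions. Among those most like Trem2 were Rnase4 (r = 0.983) and Crybb1 (0.979). Most like Tyrobp were Fcer1g (0.938), the other ITAM adaptor of myeloid cells, Hcls1 (0.907) and Fmnl1 (0.829). Most like Trem1 were Pygl (0.970), A530064D06Rik (0.948) and 9830107B12Rik (0.948).

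The rest of the pathway was read from lists by role, in microglia of Disc1 LI/LI over controls. Of 11 genes for ligands and sheddases, 9 were tested, 2 were higher and none lower, with a median log2 ratio of -0.04. For this and the lists that follow, 1.57% of all tested genes were higher and 16.3% lower, with a median of -0.19. Medians by gene length ran from 0.15 to -0.48, as given above, and the lists were not matched for length. The 2 higher genes were Lgals3 (6.26 and 27.8 CPM) and Pglyrp1 (1.60 and 20.7 CPM), a TREM1 ligand. Both reached 10 CPM only in Disc1 LI/LI, so that no other direction was possible for them. In Disc1 LI/LI microglia they stood at 4.26% and 0.845% of the neutrophil level. Apoe, a lipoprotein that TREM2 binds, had a log2 ratio of -0.33, and the sheddase genes Adam10 and Adam17 had -0.50 and -0.29. Of 14 other receptors that pair with TYROBP or HCST, 2 were tested and none passed the fold, Clec5a (-0.04) and Siglech (-0.08). Several in that list (the Sirpb1, Pilrb and Klra genes) have near-identical copies and their counts are uncertain.

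Of 5 other ITAM adaptors 3 were tested and 2 were higher, Cd79a (2.31 and 37.1 CPM) and Cd79b (32.6 and 56.7 CPM), the adaptors of the B cell receptor. Cd79a reached 10 CPM only in Disc1 LI/LI, so that no other direction was possible for it. The 9 B cell markers, which include both genes, summed to 252 and 485 CPM in microglia and to 608 and 7809 CPM in other cells, and the libraries held 15 and 171 B cell-like cells. The part of B cell RNA in the Cd79a and Cd79b values was not tested. The third, Fcer1g, had a log2 ratio of 0.29 (0.28 to 0.31) with 3369 and 4132 CPM. None of 6 tested kinases, which were Src and Tec family kinases and Ptk2b, passed the fold. Their median was -0.34, with Lyn at -0.44, Btk at -0.51 and Tec at -0.54. Of 12 tested adaptors and exchange factors, Dok3 (0.67) was higher and Sos1 (-0.67) and Gab2 (-0.75) were lower.

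None of the 12 tested genes of the phospholipase C, calcium and CARD9 branch passed the fold, with a median of -0.36 and with Rasgrp3 at -0.41 and Malt1 at -0.57. In the PI3K branch Pik3cb (-0.78) was lower and none higher among 7 tested, with a median of -0.30. None of 13 tested inhibitors passed, with a median of -0.20, among them Inpp5d (-0.29), the phosphatase SHIP1 that opposes PI3K, and Cd33 (-0.36). Of 7 tested genes that mark disease-associated microglia, the TREM2-dependent state of microglia near plaques, 2 were lower and none was higher, with a median of 0.09. The lower ones were Lpl (10.6 and 4.16 CPM) and Spp1 (11.3 and 2.94 CPM). Both reached 10 CPM only in the controls, so that no other direction was possible for them. Cst7 stood at 0.43 and Cd9 and Ctsl at 0.09 and 0.12.

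Other receptors of the adaptor were also compared between the cell classes. In neutrophils over microglia of Disc1 LI/LI, 6 of the 8 tested receptors that pair with TYROBP or HCST were higher and 2 lower. The median log2 ratio was 4.77 beside -1.29 for all genes. The 6 higher ones reached 10 CPM only in neutrophils, so that their direction, and the sign of this median, were fixed by that limit. They include Sirpb1 and Pilrb genes, whose counts are uncertain. The lower ones were Siglech (872 and 29.0 CPM in microglia and neutrophils), which is a gene of the class rule, and Clec5a (138 and 69.8 CPM). TMM scaling adds 1.36 to each ratio, so that any ratio between -1.36 and 0, such as that of Clec5a (-0.98), turns upward under it. Cd300lb (2.57 and 81.3 CPM) and Cd300ld (1.84 and 97.1 CPM) were among the higher. Of 7 tested kinases 6 were lower in CPM, with a median of -1.44, and only Fgr (5.38 and 86.5 CPM) was higher, where 69.8% of all tested genes were lower and 14.5% higher with a median of -1.29. Among exchange factors Vav1 (105 and 35.5 CPM) and Vav2 (21.3 and 1.71 CPM) were lower and Vav3 (2.45 and 45.5 CPM) higher. Rasgrp3 (160 and 5.98 CPM) and Blnk (168 and 8.02 CPM) were lower in neutrophils, and the inhibitory receptors Lilrb4a (3.79 and 168 CPM), Pirb (27.4 and 252 CPM) and Pilra (32.4 and 174 CPM) were higher. Treml2, a further member of the TREM family, was counted at 5.14 CPM in microglia and 40.5 CPM in neutrophils. Fgr, Vav3, Lilrb4a and Treml2 likewise reached 10 CPM only in neutrophils, and Vav2, Rasgrp3 and Blnk only in microglia. No other direction was possible for these genes.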

How the data were processed

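Raw UMI counts per gene and barcode, deposited by the authors without normalization, were made with Cell Ranger 6.1.2 (per the file headers) on mm10. The labels also name STAR and Seurat 3.0.1. The chip used for each library is not given in the sources used here. Kept barcodes had at least 200 genes and at most 10% of UMIs from mitochondria, which removed 6 in the controls and 17 in Disc1 LI/LI and left 33591758 and 47689834 UMIs. The deposited counts were summed per class and library and divided by the summed UMIs. Genes with at least 10 CPM in either sum were tested against a 1.5-fold limit, and "tested" here means no more than that. Intervals were Clopper-Pearson, Poisson or binomial, for counting error only.

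The members, gene lists and markers were chosen with earlier results of these data known. Named genes were the 7 members, the pathway lists, class markers and the 3 genes most correlated with Trem2, Tyrobp and Trem1. Genes that lead a cluster were named after the clusters were seen. Cells were clustered within each class on 2000 variable features without the members, with 25 components and the Leiden method at resolution 0.5. Clusters took a name where at least 3 markers were detected in at least 10% of cells and at least 2-fold above other cells, a rule set after the clusters were seen, and some clusters at that limit were left unnamed. Doublets were not removed, and both marker limits were met by 11 and 57 cells. Within 25% of the microglia marker limit lay 382 and 272 cells. The promoter motifs were chosen after the sequences were seen. Gene lengths came from GENCODE for 32158 of 32285 identifiers. Some genes of the marker and pathway lists and of the correlated genes are not reported here. Clec7a was not analysed here, nor were promoters of Tyrobp and Trem3. Ratios were tested on simulated counts, and thinning on part of the Disc1 WT/WT barcodes. Alternatives were other cell filters, TMM scaling, other totals, means over cells, thinning, stricter classes, the 5% deepest cells left out, removal of free RNA, a 2-fold limit and a resolution of 1. Clustering used scanpy 1.11.5 and leidenalg 0.10.2, intervals scipy 1.17.1, sums pandas 2.3.3 in Python 3.11.15, and TMM factors alone edgeR 4.0.16 in R 4.3.3.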

Additional observations from a re-analysis of the deposited data

Results flagged for a closer look

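The ratio of Disc1 LI/LI over Disc1 WT/WT had opposite signs for Trem2 in different classes. It was 0.30 on the log2 scale in microglia against -2.08 in neutrophils, and 0.30 in microglia against -1.90 in other cells. With 1 library per genotype these differences were not tested. Neutrophil cluster 4, which held microglia markers, made up 29 of the 116 control neutrophils and 202 of the 3622 from Disc1 LI/LI, and without clusters 4 and 6 the neutrophil value was -0.06. The class of other cells held different clusters in the 2 libraries, as given with its values.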

How the results depend on the processing

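No paired analysis was possible because each genotype has 1 library, and no replicate could be left out. Of 7 members, 1 passed 1.5-fold in microglia between genotypes, 2 (Hcst and Syk) after thinning to 1000 UMIs and 0 at a 2-fold limit. In neutrophils between genotypes 2 passed, 6 with TMM factors, 3 with the filter of 1000 genes (Trem1 added, -0.64), 3 after thinning (Plcg2 added, -0.70) and 1 each with the mean over cells, with stricter classes, with free RNA taken off and without clusters 4 and 6. With free RNA taken off the 1 was Plcg2, and Trem2 had no value left to compare. The log2 ratio of Syk in neutrophils turned to 0.30 with TMM factors. In neutrophils over microglia of Disc1 LI/LI, TMM factors turned Tyrobp to 0.88 and Plcg2 to 0.55, and a filter of 1000 genes and 5% mitochondrial UMIs turned Syk to -0.023. TMM factors assume that most genes do not differ, and their part in these changes is fixed by the shift they add, 0.06 in microglia, 0.92 in neutrophils and 0.48 in other cells. The cause of the other changes was not tested. Of 49 counts of members under alternatives 42 stayed within 1.5 times, and of 331 ratios 226 moved by less than their counting interval, 101 moved further and 4 turned. The share of cells with a UMI moved with thinning in 41 of 42 cases. Of the highest cluster levels, 20 of 21 were at resolution 1 within 1.5-fold of those at 0.5. Depth limits Trem1 and Trem3 in microglia, at 3 to 38 UMIs per library, and all members in Disc1 WT/WT neutrophils, at 116 cells.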
